A study of Mus musculus with 5 samples.

Results

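The genes described here are 6 that mark or maintain interstitial cells of Cajal: Kit, Kitl, Ano1, Etv1, Thbs4 and Cd34. They were chosen by name, and all 6 were found among the 18044 genes of the deposited count table. The RNA came from wild-type C57BL/6 mouse embryos at E18.5, late in gestation. Junctions between renal pelvis and kidney were taken from all embryos of a dam and pooled, digested with collagenase, stained with an antibody against the channel HCN3 and sorted by flow cytometry. The groups were 2 libraries titled HCN3+, which the labels call pacemaker cells of the urinary tract, and 3 libraries titled HCN3-, the remaining sorted cells of the same junctions. The labels name no treatment or transgene in either group. The labels do not say whether libraries of a group came from separate pools, so p-values measure the spread between these libraries, which may be technical.

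Interstitial cells of Cajal are the pacemaker cells of the gut wall, and Kit-bearing cells of similar shape have been described in the wall of the renal pelvis and ureter. In the gut they depend on the receptor tyrosine kinase KIT, which is activated by its ligand KITL from neighbouring muscle and nerve cells. ANO1, a chloride channel opened by calcium, carries their pacemaker current, and the Ets transcription factor ETV1 acts downstream of KIT in them. Outside the gut each of these genes has other sites of expression: Kit in mast cells, melanocytes and some epithelia, Ano1 in smooth muscle and epithelia, and Cd34 in endothelium and blood progenitors.

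Each gene was read against its place in the genome (mm10, GENCODE M21 models). Kit (ENSMUSG00000005672.12) lies on chromosome 5, 75574916 to 75656722, plus strand, and Kitl (ENSMUSG00000019966.18) on chromosome 10, 100015630 to 100100416, plus strand. Ano1 (ENSMUSG00000031075.18) lies on chromosome 7, 144588549 to 144751974, minus strand, and Etv1 (ENSMUSG00000004151.17) on chromosome 12, 38779380 to 38870484, plus strand. Thbs4 (ENSMUSG00000021702.7) lies on chromosome 13, 92751590 to 92794818, minus strand, and Cd34 (ENSMUSG00000016494.9) on chromosome 1, 194938819 to 194961279, plus strand. Of these, Cd34 alone shares exon bases with another gene, 148 bases with Gm16897 on the opposite strand, and the reads there cannot be told apart, since strand is not stated to be kept.

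Upstream sequences are shown for 4 genes that show the patterns described below. Cd34, Kitl and Ano1 were low in the same pair of libraries, and Kit was not. The sequences lie upstream of a RefSeq start site, which for Ano1 falls inside the gene span given above, not at its 5′ end. The last printed base is at position -3 for Cd34 and -20 for Ano1. For Kit it is at -72 or -76, by start site, and for Kitl at -192. The sequences come from RefSeq promoter windows (GRCm38.p6, in which all 6 genes have an entry), are written 5′ to 3′ on the gene's strand, and stop where a GENCODE exon begins. Capitals mark the GC box GGGCGG on either strand.
Kit, chr5:75574816-75574915: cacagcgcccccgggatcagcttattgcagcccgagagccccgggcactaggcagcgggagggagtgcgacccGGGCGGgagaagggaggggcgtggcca
Kitl, chr10:100015571-100015629: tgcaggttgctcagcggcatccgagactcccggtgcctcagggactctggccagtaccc
Ano1, chr7:144738593-144738692: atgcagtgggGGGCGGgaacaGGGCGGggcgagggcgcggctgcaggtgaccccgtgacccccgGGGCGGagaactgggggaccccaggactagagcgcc
Cd34, chr1:194938719-194938818: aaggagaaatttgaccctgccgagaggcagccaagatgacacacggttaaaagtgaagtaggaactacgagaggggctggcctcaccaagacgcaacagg
The printed stretch before the Ano1 start site holds 3 GC boxes, and a further one lies at position -17, in bases that are not shown. The stretch before Kit holds 1, with no other in its window. The Cd34 window holds none in its 250 upstream bases. Among 32851 upstream windows of 250 bases, 32.7% hold GGGCGG on either strand. The Kitl window also has TATAAA, the TATA box, starting 25 bases before the RefSeq start, in a part that overlaps a GENCODE exon and is not shown (3 further GC boxes lie in that part), and 12.4% of windows have that motif on either strand. CCGGAA, a core of Ets factor sites, occurs in the Kitl window and in none of the windows of the other 5 genes, against 12.0% of all windows. These are matches of letters only.

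Reads assigned to genes numbered from 24588864 to 39034478 per library. Values below are normalized read counts, that is, reads divided by one size factor per library. The transcript of the sorted antigen did not separate the titles: Hcn3 was at 0 and 44.5 in the libraries titled HCN3+ and at 103, 32.2 and 41.9 in those titled HCN3-, so every direction by title rests on the titles alone. The deposited table's own fold compares another division of the libraries. It equals the ratio of library means in 100% of the rows with both means above 0 when HCN3+ sample 1 and HCN3- sample 2 (here the first set) are set against the other 3 (the second set), within a relative tolerance of 0.01. No other division matched in more than 3.23% of its rows. The first set stood apart by several lists, among them its leukocyte genes. The summed level of 13 such genes was 375119 and 510105 there and 927 to 1933 in the second set, with none of the 13 at 0 in any library. Other lists were low in the first set. Fibroblast genes, for example, summed to 11935 and 11253 there and to 95737 to 216145 in the second set, and further lists are given below. Both divisions are therefore given for each gene.

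By title, none of the 6 genes was called. All 6 passed the filter of a mean normalized count of at least 5. In limma 0 of the 6 had an adjusted p under 0.05, as had 0% of the 16579 genes tested (157 had an unadjusted p under 0.05). With edgeR 0% of genes and with DESeq2 0.0613% passed, and none of them was a member. For 0 of the 6 did the titled groups stand apart without overlap, against 10.8% of all genes tested (5.34% higher and 5.44% lower under the HCN3+ title).

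Between the sets, Cd34 and Kitl were lower in the first set, Ano1 lay just outside the threshold, and Kit, Etv1 and Thbs4 did not pass. In limma 20.5% of all genes had an adjusted p under 0.05, 10.6% as higher and 9.88% as lower in the first set, so 2 of 6 is to be read against that share. The groups did not overlap for 3 of the 6 genes (Cd34, Kitl and Ano1, all lower in the first set), while 49.6% of all genes tested did not overlap, 23.5% as higher and 26.1% as lower. With edgeR the same 2 genes were called and with DESeq2 Ano1 as well, against 17% and 27.3% of all genes. Of the 6 genes, 1 (Kitl) in the authors' deposited table had an adjusted p under 0.05, against 14.2% of its genes (6.09% higher in the second set and 8.1% higher in the first). The median log2 difference over all genes tested was -0.07.

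**Figure D1:**
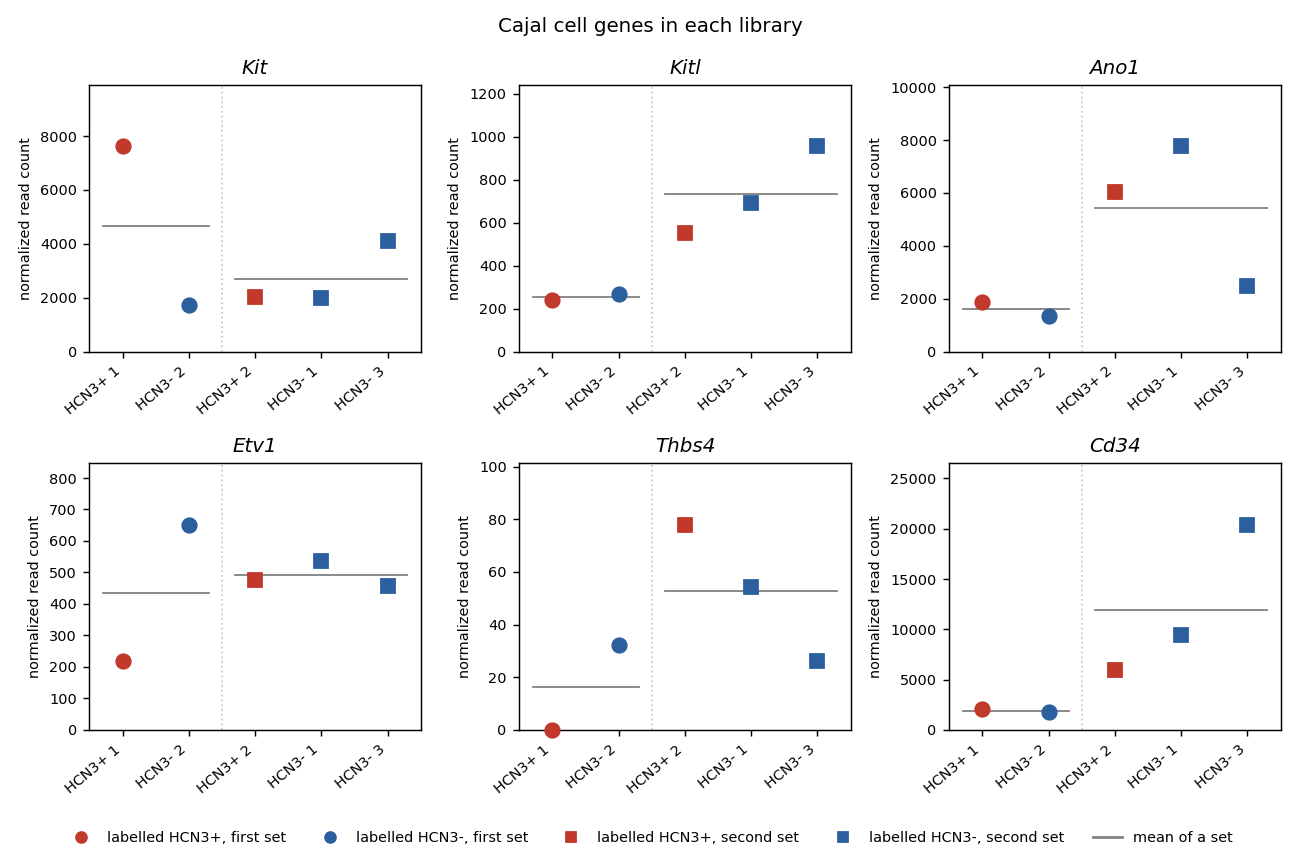
Normalized read count (vertical axis, from 0, scale differing by panel) of each gene in each library (horizontal axis). Each point is 1 library, red for titled HCN3+ and blue for titled HCN3-, circles for the first set and squares for the second, and grey lines are set means. Kitl and Cd34 are low in both circles (238 and 269 for Kitl), and Kit is highest in HCN3+ sample 1 at 7615.

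Kit, the receptor, was highest in 1 library of the HCN3+ title. Its normalized count was 7615 in HCN3+ sample 1 and 2024 in HCN3+ sample 2. In HCN3- samples 1, 2 and 3 it was 1979, 1712 and 4101. One library of each title was thus high, and the other 3 lay close together. The mean was 4820 ± 3953 (SD, n = 2) under the HCN3+ title and 2598 ± 1309 (SD, n = 3) under the HCN3- title, a log2 difference of 0.71 (SE 0.69; limma unadjusted p = 0.350, adjusted p = 1.00). Without HCN3+ sample 1 the difference turned to -0.25. Between the sets the log2 difference, first minus second, was 0.51 (SE 0.63, limma adjusted p = 0.628), and it turned to -0.57 without the same library. The authors' deposited table gives a fold of 0.579, second over first, with an adjusted p of 0.855. The 2 libraries of the first set differed 4.45-fold in Kit.

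HCN3+ sample 1 also had the highest summed level of the collecting duct list, 78068 against 13238 to 37248, and of the loop and distal tubule list, 51352 against 20738 to 28278. HCN3- sample 3, the other library high in Kit, had the lowest level of both lists, 13238 and 20738. The part of these cells in the level of Kit was not tested. Mast cells also carry Kit, and 3 of their protease genes were picked for display after their values were seen. Cpa3 was at 431 and 54.9 in HCN3+ samples 1 and 2, and at 0, 128 and 331 in HCN3- samples 1, 2 and 3, so that it was highest in the same 2 libraries as Kit. Cma1 (29.6 and 266) and Tpsb2 (46.5 and 304) were lower in HCN3+ sample 1 than in HCN3- sample 3, the reverse of Kit. In HCN3- sample 1 all 3 had 0 reads while Kit stood at 1979. Other genes of the mast cell list (also picked after seeing their values) were present there, with Ms4a2 at 281, Gata2 at 1410 and Hdc at 2618. Across all libraries Gata2 ranged from 499 to 1955 and Hdc from 2556 to 8162. Which cells expressed these other genes was not tested. Summed over 12 mast cell genes, of which 9 passed the filter, the level was 10561 and 17011 in the first set and 4385 to 5773 in the second. Hpgds, which leukocytes also express, was the 1 gene called, and the only tested one whose sets did not overlap. It alone stood at 5256 and 7670 in the first set and at 53.0 to 100 in the second. Of the 9 tested genes, 8 were higher and 1 lower in the first set, with a median log2 difference of 1.19, but Hpgds alone passed. The part of mast cells in the level of Kit was not tested. The melanocyte list, with 5 of 8 genes in the table, summed to 114 to 209 in all libraries. The 8 blood progenitor genes summed to 1288 and 705 in HCN3+ samples 1 and 2, and to 360, 650 and 660 in HCN3- samples 1, 2 and 3. Among the 20 lists, the ratio of Kit to a list's sum (Kit itself left out) ranged least for these genes, 2.36-fold across libraries. It ranged 3.04-fold for loop and distal tubule, 5.70-fold for collecting duct and 7.70-fold for mast cells. Kit stood at 263% to 621% of the blood progenitor sum. The genes of that list did not move together (examples picked after their values were seen). In HCN3+ sample 1 Flt3 (547) and Mpo (385) were at their highest and Myb (109) at its lowest. Between the sets 3 of its 7 tested genes were higher and 4 lower in the first. The part of blood progenitors in the level of Kit was not tested.

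Kitl, the ligand, was low in both libraries of the first set. Its normalized count was 238 in HCN3+ sample 1 and 551 in HCN3+ sample 2. In HCN3- samples 1, 2 and 3 it was 694, 269 and 955. The lowest Kitl was in the library with the highest Kit, but HCN3- sample 3 had the highest Kitl and the next highest Kit, so no single order holds. By title the means were 395 ± 221 (SD, n = 2) and 639 ± 347 (SD, n = 3), with a log2 difference of -0.63 (SE 0.73, limma unadjusted p = 0.421). That difference was -0.03 without HCN3+ sample 1 and -0.25 without HCN3- sample 3, against -1.24 without HCN3+ sample 2 and -1.17 without HCN3- sample 2.

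Between the sets Kitl did not overlap, with means of 253 ± 21.5 (SD, n = 2) in the first set and 734 ± 205 (SD, n = 3) in the second. The log2 difference was -1.50 (SE 0.37, limma adjusted p = 0.0315). The authors' deposited table gives a fold of 2.89, second over first, with an adjusted p of 0.0357. With any 1 library left out the limma adjusted p rose to between 0.0618 and 0.132, the log2 difference staying between -1.68 and -1.29. In bulk RNA, fewer cells that express a gene and less of its RNA per cell cannot be told apart.

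Ano1, the calcium-activated chloride channel, was high in 1 library of each title. It stood at 1866 in HCN3+ sample 1 and 6046 in HCN3+ sample 2. In HCN3- samples 1, 2 and 3 it was 7760, 1338 and 2495. By title the means were almost level, 3956 ± 2955 (SD, n = 2) and 3865 ± 3423 (SD, n = 3), and the log2 difference of 0.18 (SE 0.89, limma unadjusted p = 0.845) turned to -0.66 without HCN3+ sample 2 and to -0.39 without HCN3- sample 2.

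Between the sets all 3 libraries of the second set lay above both of the first, the nearest pair at 2495 and 1866. The means were 1602 ± 373 (SD, n = 2) and 5434 ± 2686 (SD, n = 3). The log2 difference was -1.63 (SE 0.47, limma adjusted p = 0.0523), which misses the threshold. It passed with TMM scaling (0.0496), with a pseudocount of 5 (0.0450), with DESeq2 (0.00321) and in limma without HCN3- sample 3 (0.00511). In the authors' deposited table the fold was 3.39, second over first, and the adjusted p was 0.157.

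The 5 libraries took the same order for Ano1 as for the summed smooth muscle list, which was 7842 and 118013 in HCN3+ samples 1 and 2, and 162300, 6850 and 36074 in HCN3- samples 1, 2 and 3. Fibroblast genes (11935 and 118898 in the HCN3+ samples, 216145, 11253 and 95737 in the HCN3- samples) and the PDGFRA interstitial cell and neural lists took that order too. Among the 20 lists smooth muscle was not the one whose level ran closest to Ano1. The ratio of the gene to a list's sum ranged 4.98-fold across libraries for smooth muscle. For PDGFRA interstitial cells it ranged 2.07-fold, the narrowest (61.2% to 127% of their sum). The 6 genes of that list did not move together between the sets: 4 were lower and 2 higher in the first. Pdgfra was at 304 and 483 in the first set and 3324 to 7173 in the second. Pi16 was at 1211 and 301 in the first set and 56.4 to 155 in the second. The range for the list therefore need not hold for Pdgfra alone. The smooth muscle list varied far more widely than the gene: Ano1 amounted to 4.78% to 6.92% of the smooth muscle sum in the second set, and to 23.8% and 19.5% of it in HCN3+ sample 1 and HCN3- sample 2. Of the 12 smooth muscle genes, such as Smtn and Des of the contractile and filament systems, 11 were called lower in the first set (median log2 difference -3.80). The number called was 2 without HCN3+ sample 1, 5 without HCN3+ sample 2 or HCN3- sample 1, 4 without HCN3- sample 2 and 12 without HCN3- sample 3. The part of smooth muscle or of any other of these cells in the difference of Ano1 was not tested.

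Etv1, the Ets factor downstream of KIT, was low in 1 library of the HCN3+ title. It was at 218 in HCN3+ sample 1 and 476 in HCN3+ sample 2. In HCN3- samples 1, 2 and 3 it was 537, 651 and 458. Apart from HCN3+ sample 1, where Kit was highest, the 4 values spanned 458 to 651. By title the log2 difference was -0.75 (SE 0.50, limma unadjusted p = 0.193) and without HCN3+ sample 1 it was -0.19. Between the sets it was -0.37 (SE 0.51, limma adjusted p = 0.659), and it turned to 0.41 without that library. The fold in the authors' deposited table was 1.13, second over first, with an adjusted p of 1.00.

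Thbs4, a matrix glycoprotein of the thrombospondin family found in Cajal cells of the gut, was barely detected. HCN3+ sample 1 had 0 reads, and the limit that such a count allows (3 reads) lies at 4.23 on the normalized scale. HCN3+ sample 2 had 105 reads, a normalized count of 77.9, the highest of the 5. The HCN3- samples 1, 2 and 3 had 61, 29 and 28 reads, at normalized counts of 54.3, 32.2 and 26.0. The libraries titled HCN3+ thus held both the lowest and the highest value. By title the log2 difference was -2.05 (SE 2.01, limma unadjusted p = 0.353). It was 1.10 without HCN3+ sample 1, and 0.10 with edgeR and 0.0582 with DESeq2. Between the sets it was -3.09 (SE 1.54, limma adjusted p = 0.216), and -0.56 without HCN3+ sample 1. It was called without HCN3- sample 2 (limma adjusted p = 0.0299), but there the first set was 1 library with 0 reads, taken to vary like the second set, and the fitted size is no bound. The authors' deposited table lists a fold of 3.28, second over first, with an adjusted p of 0.728.

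Cd34, a sialomucin of endothelial, blood progenitor and some interstitial cells, had the larger difference of the 2 genes called between the sets. Its normalized count was 2043 in HCN3+ sample 1 and 5982 in HCN3+ sample 2. In HCN3- samples 1, 2 and 3 it was 9424, 1758 and 20393. The first set held the 2 lowest values, and HCN3- sample 3 was far above the rest. By title the log2 difference was -0.99 (SE 1.12, limma unadjusted p = 0.415). It was -0.22 without HCN3+ sample 1 or HCN3- sample 3, -1.77 without HCN3+ sample 2 and -1.99 without HCN3- sample 2 (limma unadjusted p = 0.0378). Between the sets the means were 1900 ± 201 (SD, n = 2) and 11933 ± 7526 (SD, n = 3), and the lowest library of the second set was 2.93 times the highest of the first. The log2 difference was -2.47 (SE 0.47, limma adjusted p = 0.0126), and the authors' deposited table gives a fold of 6.28, second over first, with an adjusted p of 0.159. The limma adjusted p rose to 0.112 without HCN3+ sample 1, 0.0564 without HCN3- sample 1 and 0.0972 without HCN3- sample 2.

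Among the 20 lists, the summed endothelial list ran closest to Cd34. The 12 endothelial genes summed to 8889 and 37326 in HCN3+ samples 1 and 2, and to 60849, 10188 and 139748 in HCN3- samples 1, 2 and 3. Cd34 amounted to 14.6% to 23.0% of that sum, a range of 1.57-fold across the libraries, although Cd34 itself ranged 11.6-fold. Against each of the other 19 lists its range was wider, from 3.24-fold, for podocytes, upwards. The podocyte list summed to 18182 and 64332 in HCN3+ samples 1 and 2. In HCN3- samples 1, 2 and 3 it summed to 78750, 12319 and 463306. The 5 libraries took the same order for this list as for Cd34, while the endothelial sums of the first set took the reverse order. These were descriptions made after the values were seen. All 12 endothelial genes were called lower in the first set (median log2 difference -2.89), among them Emcn, an endothelial sialomucin, with -3.03 (SE 0.38, limma adjusted p = 0.00282) and Tek, the angiopoietin receptor, with -3.83 (SE 0.55, limma adjusted p = 0.00452). Without HCN3+ sample 1 none of the 12 passed, without HCN3- sample 1 or HCN3- sample 2 5 did, and without either of the others 12. Blood progenitor genes, another source of Cd34, summed to 1288 and 650 in the first set and 360 to 705 in the second, with 0 of 7 tested genes called. The part of endothelial cells, or of podocytes, in the difference of Cd34 was not tested.

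**Figure D2:**
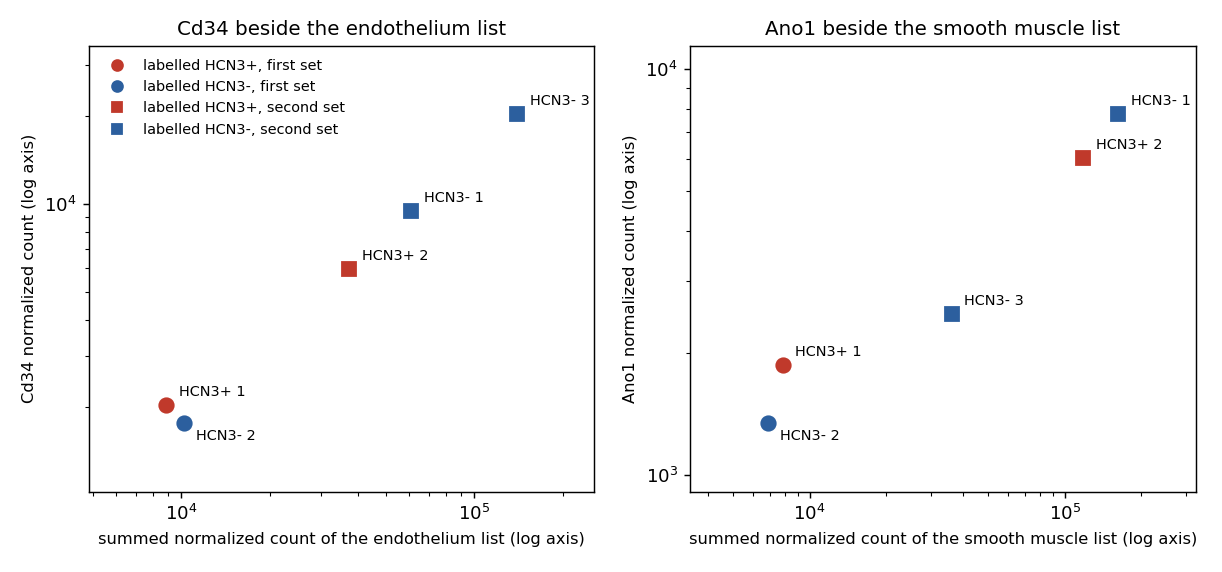
Normalized count of Cd34 (left) and Ano1 (right), vertical log axes, against the summed normalized count of the endothelium and smooth muscle lists (horizontal log axes). Each point is 1 library, coloured by title (red HCN3+, blue HCN3-) and shaped by set (circles first, squares second). Cd34 ranges from 1758 to 20393 while the endothelium sum ranges from 8889 to 139748.

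**Figure D3:**
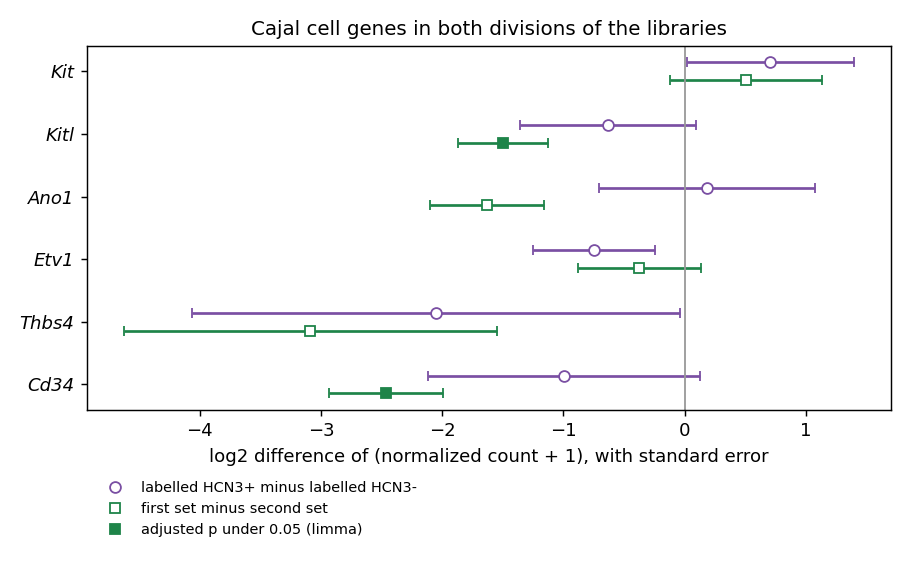
Log2 difference of (normalized count + 1) of each gene (horizontal axis) with its standard error from limma, by title (purple circles, HCN3+ minus HCN3-) and between the sets (green squares, first minus second). Filled symbols have an adjusted p under 0.05, which holds for Kitl at -1.50 and Cd34 at -2.47 between the sets and for no gene by title.

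Per kilobase of exon (all GENCODE exons of a gene merged), the mean level over the 5 libraries was highest for Cd34, at 1086 normalized counts per kilobase. Ano1 followed at 625 and Kit at 391. These 3 overlapped across libraries, with ranges of 241 to 2797, 214 to 1243 and 192 to 855. Kitl, at a mean of 91.6, was below all of them in every library, since its highest value was 162. Etv1 had a mean of 35.2 per kilobase, and its range of 16.4 to 49.0 overlapped that of Kitl, which began at 40.3. Thbs4 had a mean of 11.6, and its highest value, 23.7, overlapped the range of Etv1. No label or header names the gene models that reads were counted on, so the lengths used may differ from theirs.

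The genes nearest to each member in pattern were sought among 12848 named genes with a mean of at least 50 (12849 for Thbs4, whose own mean is lower), by the root mean square difference of log2 profiles over the 5 libraries. Nearest to Cd34 were Adcy4 (0.07), Mcc (0.09) and the endothelial receptor Flt1 (0.12). Nearest to Ano1 were the myosin light chain Myl4 (0.10), Lgi2 (0.13) and the muscle heat shock protein Hspb7 (0.16). Kitl lay nearest to the kinases Dstyk (0.10) and Yes1 (0.10) and to Uaca (0.11), and Etv1 to Them4 (0.08), Greb1l (0.08) and Adnp2 (0.09). For Kit the nearest were Ptpn4 (0.21), Ttn (0.21) and Zfp781 (0.22), and for Thbs4, at a greater distance, Fgb (0.30), Glis1 (0.31) and Lgr5 (0.33). Among those candidates 86 genes lay within 0.25 of Kitl, 110 of Etv1, 34 of Cd34, 11 of Ano1, 4 of Kit and 0 of Thbs4. Among the members themselves the closest pair was Kitl and Cd34 (0.58) and the farthest Kit and Thbs4 (3.01).

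A list of 22 KIT signalling genes (Kit and Kitl among them) was described next. By title 0 of 22 passed in limma. Between the sets 10 were called higher in the first set and 3 lower, against 10.6% and 9.88% of all genes, with a median log2 difference of 0.45. The higher ones included Ptpn6, the phosphatase SHP-1, with 5.87 (SE 0.27, limma adjusted p = 0.000136). Pik3cd, a PI3-kinase subunit, had 4.27 (SE 0.28) and the phospholipase Plcg2 had 4.07 (SE 0.35). The Src family kinase Lyn had 3.48 (SE 0.38), the transcription factor Mitf 2.06 (SE 0.37) and the adaptor Grb2 1.33 (SE 0.21). Several of these, Ptpn6, Pik3cd, Plcg2 and Lyn, are strongly expressed by leukocytes in general, and the leukocyte sums above were high in the same libraries; the part of leukocytes was not tested. Lower in the first set, beside Kitl, were the phospholipase Plcg1 with -1.82 (SE 0.41, limma adjusted p = 0.0221) and the adaptor Shc1 with -0.72 (SE 0.19, limma adjusted p = 0.0409). The 2 phospholipases therefore lay on opposite sides of 0. The number called was 5 without HCN3+ sample 1, where Grb2 and Mitf also missed the threshold, 8 without HCN3+ sample 2 or HCN3- sample 1, and 9 without either of the others. Shc1 was called in 0 of those 5 fits, and Plcg1 in 1, the fit without HCN3- sample 2 (-2.43, against -1.21 without HCN3+ sample 1).

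Other genes known from Cajal cells were lower in the first set where they were called. Of 10, 5 were called lower and 0 higher, against 9.88% and 10.6% of all genes, with a median log2 difference of -1.54 (also -1.54 with genes at 0 placed at their bounds). Lists of other cell types had lower medians between the same sets: -3.55 for fibroblasts (10 of 10 called lower), -3.80 for smooth muscle (11 of 12), -3.90 for podocytes (6 of 8) and -3.63 for PDGFRA interstitial cells (3 of 6). The part of those cells in the Cajal cell list was not tested. Gpr20, an orphan receptor of gut Cajal cells, had 0 reads in both libraries of the first set and was at least 33.7-fold lower when 3 reads are put in each of them. Its normalized counts in the second set were 116 in HCN3+ sample 2 and 153 and 113 in HCN3- samples 1 and 3. The potassium channel partner Kcnip1 also had 0 reads in the first set and was at least 16.4-fold lower. The subunits of the nitric oxide receptor guanylate cyclase, Gucy1a3 and Gucy1b3, had log2 differences of -5.77 (SE 1.20, limma adjusted p = 0.0172) and -3.38 (SE 0.57, limma adjusted p = 0.00785). Connexin 43, Gja1, had -1.85 (SE 0.39, limma adjusted p = 0.0176). The number called was 3 without HCN3+ sample 1 (Gja1 and Gucy1b3 lost), 2 without HCN3+ sample 2 (Gja1, Gucy1a3 and Kcnip1 lost), 2 without HCN3- sample 1 (Gja1, Gucy1a3 and Gucy1b3 lost) and 5 without either of the others. Gucy1a3 also missed the threshold in edgeR, with an adjusted p of 0.0576. Its log2 difference was -3.42 without HCN3+ sample 1 and -8.12 without HCN3- sample 2, and that of Gja1 was -1.20 and -2.50.

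By title 0 of these 10 passed, and 1, the endothelin receptor gene Ednrb, had titled groups that did not overlap. It stood at 3174 and 5497 in the HCN3+ samples and at 9723, 8895 and 16187 in the HCN3- samples, a log2 difference of -1.42 (SE 0.39, limma unadjusted p = 0.0141, adjusted p = 1.00). This share, 1 of 10, is close to the 10.8% of all genes.

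Of the 10 anoctamins, 0 were called higher and 1 lower in the first set, against 10.6% and 9.88% of all genes: Ano3, with 0 reads there, was at least 6.58-fold lower. The median log2 difference of the family was -2.08, and -1.51 with genes at 0 in the first set placed at their bounds. Thbs1, an early response thrombospondin, was higher in the first set with 1.76 (SE 0.32, limma adjusted p = 0.0103), while Thbs2 and Thbs3 were lower with -3.05 (SE 0.44, limma adjusted p = 0.00440) and -4.20 (SE 0.84, limma adjusted p = 0.0149). The Ets factor Etv4, a close relative of Etv1, was lower with -2.52 (SE 0.70, limma adjusted p = 0.0455), and Etv5 had 0.36 (SE 0.48, limma adjusted p = 0.655). Without HCN3+ sample 1 Thbs1, Thbs2 and Thbs3 were not called, Thbs3 was also lost without HCN3+ sample 2 or HCN3- sample 1, and Ano3 without HCN3+ sample 2. Etv4 was called in 1 of the 5 fits that leave out a library, the one without HCN3- sample 2, and had an adjusted p of 0.0854 in edgeR. Without HCN3+ sample 1 and without HCN3- sample 2 the log2 difference was -1.58 and -3.46 for Etv4, and -3.15 and -5.26 for Thbs3. By title none of the genes of these families passed.

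**Figure D4:**
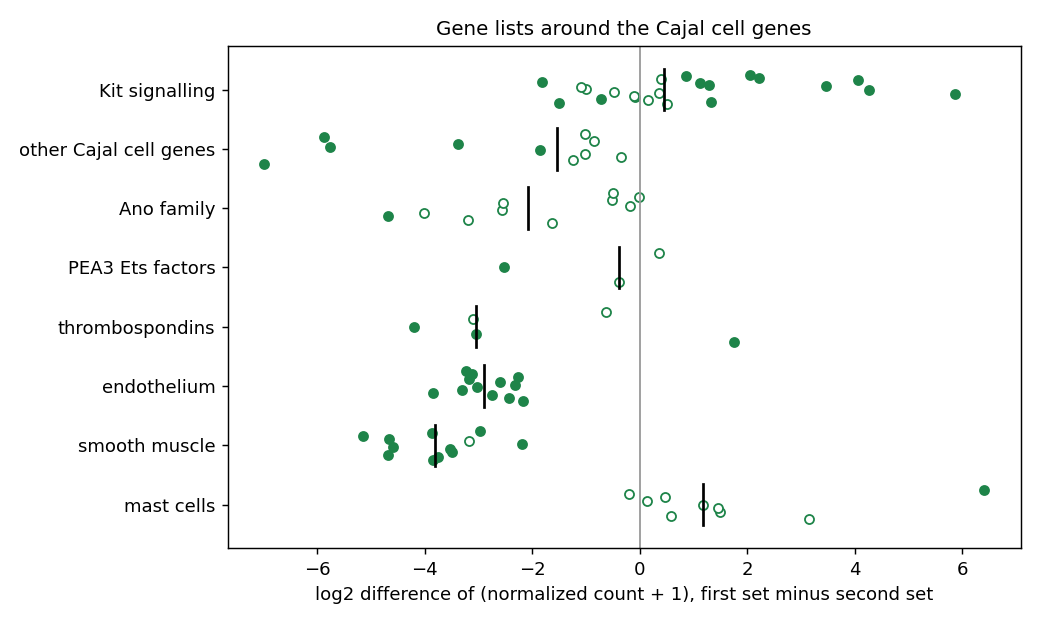
Log2 difference of (normalized count + 1), first set minus second set (horizontal axis), of the tested genes of 8 lists (rows). Each point is 1 gene, filled where the limma adjusted p was under 0.05, and black bars are list medians, from -3.80 for smooth muscle to 1.19 for mast cells. Genes at 0 in a whole set are drawn at their fitted value, which is no bound.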

How the data were processed

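The authors deposited 1 table of genes by libraries. Its signal values are normalized counts, made by the authors by dividing reads per gene by a size factor per library, per the file headers and values. Whole reads could be recovered from 100% of the values above 0 (tolerance 0.01). Per the submitters' processing notes, reads were handled with mm10 and these tools: DESeq 1.18.0, HTSeq 0.6.1p2, TopHat2 2.0.11, cutadapt 1.8, Trim Galore 0.40, FastQC 0.11.2 and bcl2fastq 2.17. The authors' deposited table also holds a fold (a ratio of set means), its log2, and p-values, raw and adjusted. The 3 rows that name no gene stayed out of all tests, and reads in them were 8.58% to 14.0% (no feature), 13.5% to 18.7% (not unique) and 0.792% to 2.32% (ambiguous).

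Genes with a mean of at least 5 were compared on the scale log2(normalized count + 1), which understates folds of low genes, with limma 3.58.1 (trend option, R 4.3.3). P-values were adjusted by Benjamini-Hochberg over all 16579 genes and called under 0.05. Alternatives were edgeR 4.0.16 and DESeq2 1.42.0 on the recovered reads, TMM scaling, pseudocounts of 0.5 and 5, a mean of at least 20 or no filter, a replicate block, each library left out, and, added after seeing the data, the authors' division as a term. The 6 genes and the lists were chosen with earlier results of these data known. Genes named beyond the 6 are the 3 nearest in pattern per gene, any member of the KIT signalling, Cajal cell and family lists, and, of other lists, up to 4 with the smallest limma p, unless said otherwise.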

Additional observations from a re-analysis of the deposited data

How the results depend on the processing

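By title, the count of genes called was 0 in every setting but DESeq2, where it was 10, and 0 of the 6 genes were called in any. The title difference reversed for Thbs4 (0.10 with edgeR, 0.0582 with DESeq2, 1.10 without HCN3+ sample 1), for Kit (-0.25 without HCN3+ sample 1) and for Ano1 (-0.66 without HCN3+ sample 2, -0.39 without HCN3- sample 2). With 1 library left out the title difference ran from -0.25 to 1.66 for Kit, -1.24 to -0.03 for Kitl, -0.66 to 1.03 for Ano1, -1.31 to -0.19 for Etv1, -5.20 to 1.10 for Thbs4 (the first of these with 0 reads in the lone HCN3+ library) and -1.99 to -0.22 for Cd34. The cause was not tested.

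Between the sets, leaving out 1 library gave 1241 to 2829 genes called and 0 to 2 of the 6 genes (Cd34 without HCN3+ sample 2, Thbs4 without HCN3- sample 2, Ano1 and Cd34 without HCN3- sample 3). The count was 1241 without HCN3+ sample 1, 1906 without HCN3+ sample 2 and 1726 without HCN3- sample 1, fits that also have fewer samples. Without HCN3+ sample 1 the difference reversed for Kit (-0.57) and Etv1 (0.41), whose ranges over the left-out libraries were -0.57 to 1.58 and -1.16 to 0.41. Members called between the sets numbered 3 (Cd34, Kitl and Ano1) with DESeq2, with TMM scaling and with a pseudocount of 5.

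With the replicate number as a block, the title fit called 0 genes, with log2 differences of 1.09 (Kit), -0.25 (Kitl), 0.06 (Ano1), -0.87 (Etv1), -2.27 (Thbs4) and -0.22 (Cd34). HCN3- sample 3 shares its number with no other library, so its block absorbs it. These differences are therefore the same as those without that library. The numbers share no stated origin, so same-numbered libraries were not taken as pairs. Their deviations correlated at -0.53 and -0.69 across genes, but same-numbered libraries lie in opposite sets, so these correlations cannot decide whether they are pairs. With the authors' division as a term, chosen after seeing the data, 0 genes were called by title. Where a left-out library leaves 1 in a group, that library is assumed to vary like the others. With 2 and 3 libraries a group, the precision is limited by their number.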
